A study of Homo sapiens with 6 samples.

Results

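The transcripts described here are those of 10 genes with roles in entry into mitosis or in its later steps. Among them are the cyclin genes CCNA2, CCNB1 and CCNB2 and the kinase genes CDK1, PLK1, AURKA and AURKB. The others are the phosphatase gene CDC25C, the survivin gene BIRC5 and the transcription factor gene FOXM1. They were chosen by name, all 10 were found among the 33542 genes of the deposited count table, and all 10 passed the filter on low counts. The libraries came from T24, a human urinary bladder carcinoma line grown in culture and transfected with a small interfering RNA by a lipid reagent. In 3 libraries, with the deposited column label siTR2, that RNA targeted TRAIP, whose product is a ubiquitin ligase recruited to stalled replication forks (siTRAIP). In the other 3 it was a control sequence (siNC). All 6 libraries thus share the cell line and the transfection, and the knockdown was partial. Neither the time after transfection nor the siRNA sequences were found in the labels. Because all 3 siTRAIP libraries carry the same siRNA label, its effects on other transcripts cannot be told apart from loss of TRAIP. The study's stated aim is to find mechanisms downstream of TRAIP in bladder cancer, and its title names MYC.

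As background, CDK1 bound to a B-type cyclin is the kinase that starts mitosis, and cyclin A2 prepares its activation in late S phase and G2. CDC25C removes the inhibitory phosphates from CDK1, PLK1 promotes that step and later acts at centrosomes and kinetochores, and the Aurora kinases work at spindle poles (AURKA) and on chromosomes with survivin as part of the chromosomal passenger complex (AURKB). FOXM1, together with B-MYB and the MuvB complex, activates most of these genes in G2. In resting cells the DREAM complex represses many of them through a promoter element called the CHR, the cell cycle genes homology region. Their mRNA levels in a bulk culture therefore follow how many cells are in G2 and mitosis as well as the level per cell. In these bulk libraries a change in the number of such cells and a change in RNA per cell cannot be told apart.

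Total gene counts ran from 39111793 to 70439496 per library. TRAIP mRNA averaged 12.95 ± 1.61 CPM (counts scaled to a common library size, with TMM factors that correct for differing library composition) in siTRAIP and 27.8 ± 1.04 CPM in siNC (SD, n = 3 each), so the label of each group fits its targeted transcript. Replicate 3 of siTRAIP stood somewhat apart: over 8664 genes with a mean of at least 10 CPM, its median absolute log2 difference was 0.08 from each of the other siTRAIP libraries, against 0.05 to 0.06 for every other pair within a group. The epithelial keratins KRT8, KRT18 and KRT7 were abundant in all libraries. KRT7 fell to 1152 CPM in siTRAIP, against 1308 CPM in siNC (edgeR adjusted p = 0.00375), while KRT8 and KRT18 were not called. KRT19, a further keratin, was less abundant at 20.7 CPM in both groups. By contrast, the epithelial marker EPCAM was scarce, at 1.66 CPM in siTRAIP and 1.30 CPM in siNC. CDH1, the E-cadherin gene, had at most 7 counts in any library. The 5 fibroblast markers found in the table summed to 41, 53 and 369 counts in siTRAIP replicates 1 to 3, against 72 to 82 in siNC, and their part in any value that rests on siTRAIP replicate 3 was not tested. Endothelial markers summed to at most 10 counts in any library. Of the leukocyte markers CD68, a lysosomal gene, alone passed the filter; it rose to 43.3 CPM in siTRAIP, against 34.9 CPM in siNC (edgeR adjusted p = 9.17e-04). The part of the KRT7 and CD68 differences in the values below was not tested.

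The mitotic genes did not move as a block. BIRC5 rose by 20.1% and PLK1 fell by 14.96% in siTRAIP, and the other 8 did not pass the edgeR quasi-likelihood test at an adjusted p of 0.05 over all 18685 genes tested. That is 2 of 10 members, 1 in each direction, where 12.8% of all tested genes were called, 7.47% as rises and 5.34% as falls. Among the 8553 genes with a mean CPM at least that of CDC25C, the lowest member, 22.5% were called. The share of members called is thus near the background. The median log2 fold change was 0.03 over the members and -0.00174 over all tested genes. Summed over the 10 genes, the level was 1082.7, 1112.1 and 1096.1 CPM in siTRAIP replicates 1 to 3 and 1087.7, 1074.4 and 1088.0 CPM in siNC replicates 1 to 3, and these sums overlap. The labels do not tell whether replicates were separate cultures; the p-values measure the spread between these libraries, which may be technical.

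**Figure D1:**
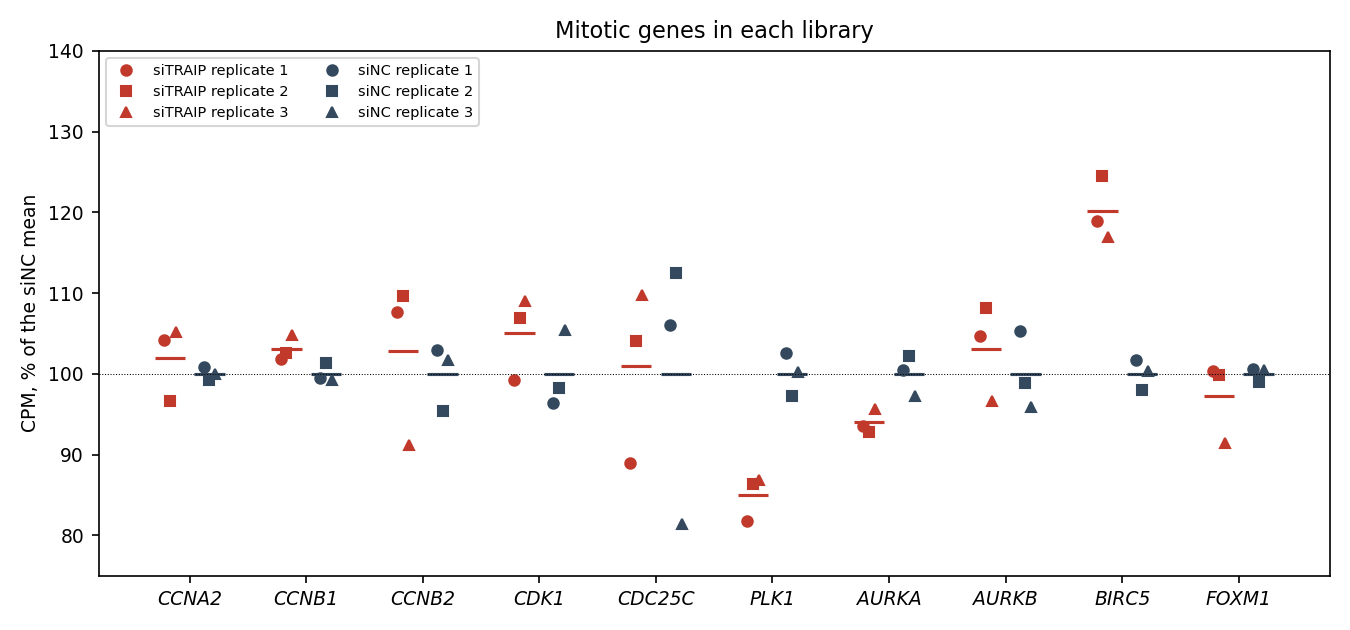
CPM of each mitotic gene in each library as a percentage of that gene's siNC mean (vertical axis from 75% to 140%, not from 0), with siTRAIP in red left of siNC in dark blue and a line at each group's mean. The siTRAIP libraries lie clear of the siNC libraries for BIRC5 (above), PLK1 and AURKA (below) and, by a small margin, CCNB1 (above), and overlap them for the other 6 genes.

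The cyclin genes stayed close to their control levels. CCNB1 (chromosome 5, 69167010 to 69178245, plus strand, GRCh38), the gene of the main mitotic cyclin, stood at 202.8, 204.2 and 208.7 CPM in siTRAIP and at 197.9, 201.8 and 197.5 CPM in siNC. Its siTRAIP libraries all lay above its siNC libraries. Groups did not overlap for 4 of the 10 members (CCNB1, PLK1, AURKA and BIRC5) and for 29.1% of all tested genes, 14.8% with siTRAIP higher and 14.4% with siTRAIP lower. For CCNB1 the change was 3.12% with a 95% interval from -2.67% to 9.24% (edgeR adjusted p = 0.557). On library totals, without TMM factors, its log2 fold change was -0.0158, so even this direction hangs on the scaling. CCNB2 (chromosome 15, 59105078 to 59125045, plus strand), the gene of the Golgi-associated B-type cyclin, had 64.8, 66.0 and 54.9 CPM in siTRAIP and 62.0, 57.5 and 61.2 CPM in siNC. Here siTRAIP replicate 3 was the lowest library of all 6 while the other siTRAIP libraries were the highest, and the difference in log2 was 0.04 ± 0.06 (SE; edgeR adjusted p = 0.78) with all libraries and 0.12 without siTRAIP replicate 3 (edgeR adjusted p = 0.0765). CCNA2 (chromosome 4, 121816444 to 121823933, minus strand), the gene of the S and G2 phase cyclin, had 72.8, 67.6 and 73.5 CPM in siTRAIP and 70.4, 69.3 and 69.9 CPM in siNC, a change of 2.02% with an interval from -4.44% to 8.92%. Of the exonic bases of CCNA2, 9.08% also belong to the opposite-strand gene EXOSC9, which had 88.0 CPM in siTRAIP and 84.4 CPM in siNC; the part of shared reads in the CCNA2 value was not tested.

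CDK1 (chromosome 10, 60778331 to 60794852, plus strand), the kinase partner of these cyclins, was the most abundant member by CPM. It stood at 209.8, 226.0 and 230.4 CPM in siTRAIP and at 203.6, 207.5 and 222.9 CPM in siNC. The groups overlapped, and the difference, 0.07 ± 0.05 (SE) in log2, was not called (edgeR adjusted p = 0.369). CDC25C (chromosome 5, 138285265 to 138338355, minus strand) had 348 to 780 counts per library. Its levels of 9.2, 10.7 and 11.3 CPM in siTRAIP and 10.9, 11.6 and 8.4 CPM in siNC spread widely within both groups, and its interval, from -13.9% to 20.04%, is the widest of the 10. That interval comes close to the sizes of the PLK1 and BIRC5 changes on either side. Its SE of 0.11 in log2 compares with 0.08 for CHEK2, which had 444 to 804 counts per library. It was 0.09 for LIN52 (384 to 807 counts) and 0.095 for CCNE1 (274 to 576 counts). Of its exonic bases 9.62% also belong to the opposite-strand gene FAM53C, which had 22.1 CPM in siTRAIP and 21.6 CPM in siNC; the part of shared reads was not tested.

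Sequence upstream of CDK1, both B-type cyclin genes and PLK1 is shown with matches to promoter motifs marked. RefSeq promoter entries (GRCh38.p14, 250 bases before to 50 after the RefSeq start) were matched for 7 of the 10 members; AURKA, BIRC5 and FOXM1 were not among them. Capitals mark the NF-Y binding box (letters CCAAT), the CHR (letters TTTGAA) and the forkhead core (letters TAAACA), each searched on both strands. No overlap between motifs occurred in the stretches printed, which run 5′ to 3′ on the gene's own strand and lie wholly upstream of the RefSeq start. The gene bounds given with each member are those of the deposited count table's exons, and their starts can differ from RefSeq's: by these bounds the CCNB1 and PLK1 stretches lie inside the gene, that of CCNB2 spans its start and that of CDK1 lies upstream.
CCNB1, chr5:69167059-69167103, plus strand: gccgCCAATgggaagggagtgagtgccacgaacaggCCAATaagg
CCNB2, chr15:59105022-59105126, plus strand: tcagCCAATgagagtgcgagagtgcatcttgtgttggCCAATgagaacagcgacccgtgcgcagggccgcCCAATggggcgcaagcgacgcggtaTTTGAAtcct
CDK1, chr10:60778120-60778189, plus strand: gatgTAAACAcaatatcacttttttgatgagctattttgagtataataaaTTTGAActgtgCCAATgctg
PLK1, chr16:23678812-23678869, plus strand: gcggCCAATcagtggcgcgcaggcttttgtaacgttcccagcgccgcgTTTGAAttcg

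In CCNB2 the 3 CCAAT boxes of this stretch start 33 bases apart, and in CCNB1 the 2 boxes start 32 bases apart. A pair of CCAAT boxes on 1 strand spaced by 32 or 33 bases was present in 0.897% of 10592 promoters of tested genes. Of the 7 member promoters, 2 held such a pair, CCNB1 and CCNB2. The spacings searched were those of these 2 promoters, so their match was fixed in advance and the shares cannot be compared. A CCAAT box anywhere in the window was present in 6 of 7, against 36.7% of tested promoters. The CHR was present in 3 of 7 (CCNB2, CDK1 and PLK1), against 9.93% of tested promoters and 84% of 25 promoters of the G2/M transcripts listed further on. Both motifs together were present in the same 3, against 4.18% of tested promoters and 68% of those 25 G2/M promoters. A CCAAT box was present in 72% of the 25, so neither trait is particular to the members. The forkhead core was present in 1 of 7 (CDK1), against 7.18% of tested promoters and 8% of the 25 G2/M promoters. In PLK1 and CCNB2 the CHR starts at base -29 in both, counted from the RefSeq start. These 3 genes had log2 fold changes of -0.23 (PLK1), 0.04 (CCNB2) and 0.07 (CDK1), and of the 3 PLK1 alone was called. Among promoters of called genes the CHR was present in 10.9% of rises and 7.61% of falls. A match of letters is a description and not a bound site. Nor does a missing match show that a gene lacks the element. For CCNA2, CCNB1, AURKB and CDC25C no CHR letters were found, but variant letters and other start sites were not searched.

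PLK1 (chromosome 16, 23677656 to 23690367, plus strand), the polo-like kinase, was the 1 member that fell. It stood at 122.0, 129.0 and 129.7 CPM in siTRAIP, against 153.1, 145.1 and 149.6 CPM in siNC. Every siTRAIP library lay below every siNC library. In log2 this is -0.23 ± 0.04 (SE; edgeR adjusted p = 5.41e-04), with a 95% interval of the change from -20.04% to -9.56%. It passed in all 18 alternative settings tried, with log2 fold changes from -0.294 to -0.207. Of its exonic bases 12.9% are shared with opposite-strand genes, and whether the counting used strand is unknown. Those partners were scarce: ERN2 had at most 10 counts in any library, and CTD-2196E14.5 averaged 7.57 CPM in siTRAIP and 8.60 CPM in siNC. The part of shared reads in the PLK1 value was not tested.

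Neither Aurora kinase gene was called. AURKA (chromosome 20, 56369389 to 56392337, minus strand) had 101.0, 100.2 and 103.2 CPM in siTRAIP, against 108.6, 110.4 and 105.1 CPM in siNC. Its groups did not overlap, and in edgeR its log2 fold change, -0.09 ± 0.04 (SE), had an unadjusted p of 0.0453 and an adjusted p of 0.19. It is the member whose call depends most on the scaling: on library totals the log2 fold change was -0.149 with an edgeR adjusted p of 0.0167, and with limma on the deposited RPKM values it passed as well. GENCODE v29 lists 2 AURKA pseudogenes, so some of its reads could be assigned elsewhere. The same limit holds for the member CCNB2, with 1 pseudogene. Among related genes named below it holds for ENSA (3), RBBP4 (6), RRM2 (3), UBE2S (2) and CDC20 (1). AURKB (chromosome 17, 8204733 to 8210600, minus strand) had 65.8, 68.0 and 60.7 CPM in siTRAIP and 66.2, 62.2 and 60.3 CPM in siNC, a difference of 0.04 ± 0.05 (SE) in log2 (edgeR adjusted p = 0.676).

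BIRC5 (chromosome 17, 78214186 to 78225636, plus strand), whose product survivin is both a passenger complex subunit beside AURKB and a member of the inhibitor of apoptosis family, was the 1 member that rose. It stood at 136.8, 143.3 and 134.5 CPM in siTRAIP, against 117.1, 112.7 and 115.4 CPM in siNC. The lowest siTRAIP library exceeded the highest siNC library by more than the spread within either group. In log2 this is 0.26 ± 0.04 (SE; edgeR adjusted p = 1.25e-04), with an interval of the change from 12.99% to 27.7%. All 18 alternatives kept the call, with log2 fold changes from 0.198 to 0.283. No other gene of the table shares its exonic bases.

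FOXM1 (chromosome 12, 2857681 to 2877155, minus strand), the forkhead factor that activates G2/M genes, had 97.7, 97.2 and 89.0 CPM in siTRAIP and 97.9, 96.3 and 97.8 CPM in siNC. In siTRAIP replicates 1 and 2 it sat within the siNC range, and replicate 3 alone was low. The change was -2.86% with an interval from -8.96% to 3.65% (edgeR adjusted p = 0.637), and the log2 fold change was 0.00119 without siTRAIP replicate 3. ITFG2 on the opposite strand shares 15.9% of its exonic bases and had 36.3 CPM in siTRAIP and 35.2 CPM in siNC. Of 10698 genes with a mean of at least 5 CPM, those whose log2 CPM followed FOXM1 most closely over the 6 libraries were UQCC2 (Pearson r = 0.995), TMEM189 (0.993) and HMOX2 (0.992), and each was likewise lowest in siTRAIP replicate 3. With 6 points and 1 library setting the pattern, these values describe that library.

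**Figure D2:**
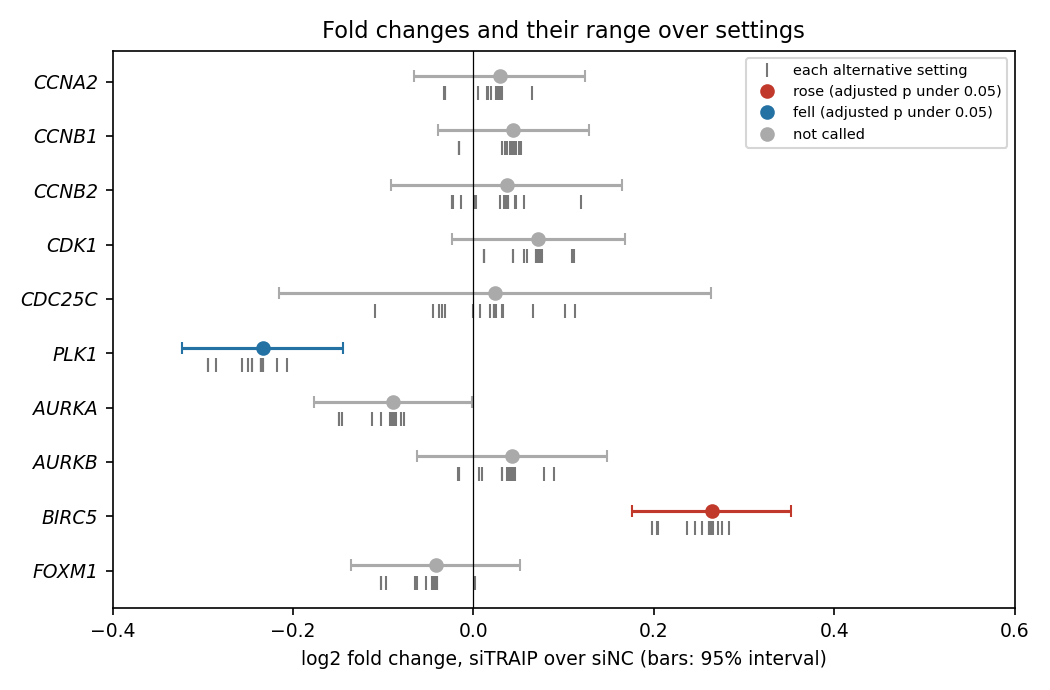
Log2 fold change of each mitotic gene, siTRAIP over siNC, with its 95% interval from the edgeR fit (dots and bars), and the values under 18 alternative settings (ticks below each dot). The ticks of PLK1 lie between -0.294 and -0.207 and those of BIRC5 between 0.198 and 0.283, whereas those of CCNA2, CCNB1, CCNB2, CDC25C, AURKB and FOXM1 fall on both sides of 0 depending on scaling or on the library left out.

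The members differed far more in level than between groups. Per length, in the deposited RPKM (counts per length, scaled by library totals), CCNB1 was highest at 78.5 ± 1.47 RPKM in siTRAIP and 79.4 ± 0.269 RPKM in siNC, followed by CDK1 at 55.3 ± 3.05 and 54.9 ± 2.96 RPKM in siTRAIP and siNC (SD, n = 3 each). CDC25C was lowest in both groups, at 3.34 ± 0.375 RPKM in siTRAIP and 3.45 ± 0.542 RPKM in siNC. In between, the order in siTRAIP was BIRC5, AURKA, AURKB, PLK1, CCNA2, CCNB2 and FOXM1, where the libraries of AURKB and PLK1, of PLK1 and CCNA2 and of CCNB2 and FOXM1 overlapped. In siNC it was AURKA, PLK1, BIRC5, AURKB, CCNA2, CCNB2 and FOXM1, where PLK1 and BIRC5 and also BIRC5 and AURKB overlapped. BIRC5 thus stood at place 3 in siTRAIP and place 5 in siNC, and PLK1 at place 6 in siTRAIP and place 4 in siNC.

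Ratios within a library do not depend on how libraries are scaled. The RPKM of BIRC5 over that of PLK1, a pair chosen after their values were seen, was 1.40, 1.39 and 1.29 in siTRAIP and 0.954, 0.969 and 0.963 in siNC. The ratio of CCNB1 to CCNB2, the B-type cyclin pair, was 3.66 ± 0.438 in siTRAIP and 3.62 ± 0.192 in siNC (SD, n = 3 each), a difference smaller than the spread. That of CCNB1 to CDK1, the kinase and its main cyclin, was 1.42 ± 0.0551 in siTRAIP and 1.45 ± 0.0766 in siNC, again within the spread. AURKA over AURKB was 1.18, 1.13 and 1.30 in siTRAIP and 1.26, 1.36 and 1.33 in siNC, and these overlapped in siTRAIP replicate 3.

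**Figure D3:**
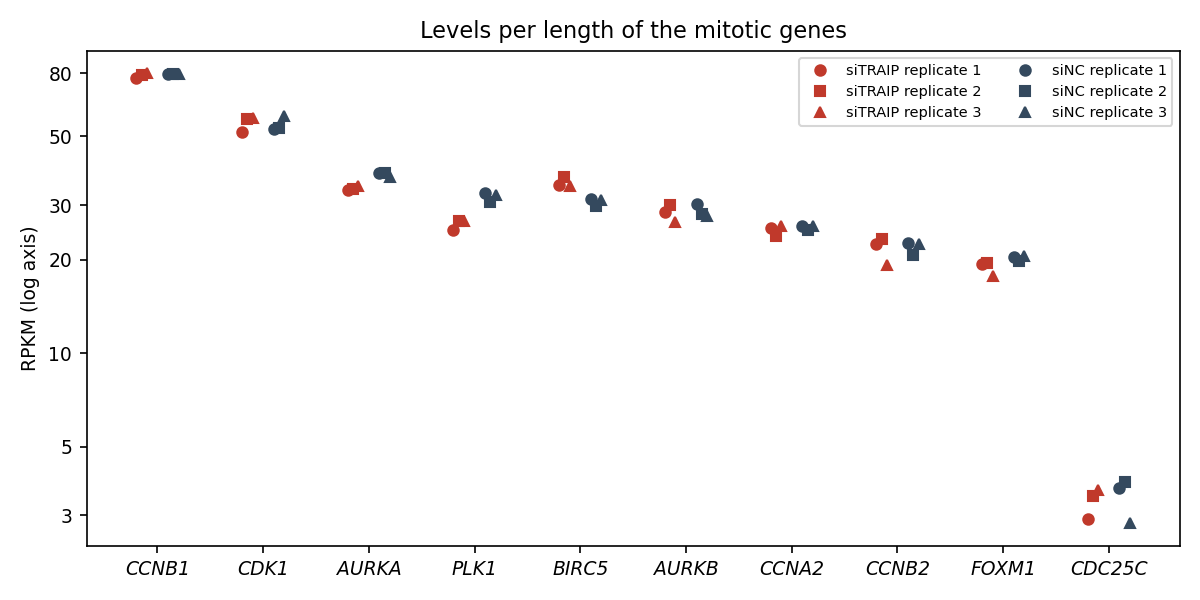
Deposited RPKM of each mitotic gene in each library on a log axis, ordered by the siNC mean, with siTRAIP in red left of siNC in dark blue. CCNB1 and CDK1 lie above 50 RPKM in every library, CDC25C lies below 4, and the other 7 genes lie between 17.8 and 38.1 RPKM.

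Genes that act on or beside the members were described by lists of their roles, 118 genes in the table and 117 tested, of which 23 rose and 8 fell. That is 26.5% called, against 12.8% of all tested genes and 22.5% of those with a mean CPM at least that of CDC25C. With 1 library left out, 17 to 34 of these genes were called, with 17 without siNC replicate 1, 19 without siTRAIP replicate 1 and 20 without siNC replicate 3, and limma on the RPKM values called 19, of which 8 rose and 11 fell. On library totals, without TMM factors, 13 rose and 18 fell, so the balance of directions depends on the scaling, and the median over all tested genes moved to -0.0618 (log2) there.

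Of 19 other regulators of CDK1, 3 rose and none fell (list median -0.02). ENSA, an inhibitor of the phosphatase that opposes CDK1, averaged 211.6 ± 8.04 CPM in siTRAIP and 151.6 ± 5.25 CPM in siNC (SD, n = 3 each), a rise of 0.48 ± 0.04 (SE) in log2 (edgeR adjusted p = 4.30e-08). PKMYT1, the kinase that places inhibitory phosphates on CDK1, rose by 0.41 (SE 0.05) on the log2 scale, with 31.6% of its exonic bases shared with opposite-strand genes. PPP2R2A, a regulatory subunit of that phosphatase, rose by 0.32 (SE 0.05). WEE1, CDC25A and CDC25B, the other direct switches of CDK1 in this list, had log2 fold changes of -0.10, 0.12 and -0.02 and were not called; they were picked for their role.

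Of 18 tested partners and relatives of PLK1 and the Aurora kinases, 4 rose and 2 fell (median 0.03). PRC1, the bundler of the central spindle, rose by 0.19, the abscission protein gene CEP55 by 0.18 and TPX2, the activator of Aurora A, by 0.14 on the log2 scale (SE 0.04 each). PLK2, a polo-like relative, fell by 0.14 (SE 0.04) and AURKAIP1, named for its binding to Aurora A, fell by 0.16 (SE 0.05).

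Of 16 regulators of G2/M transcription, 3 rose and 1 fell (median 0.04). MYBL2, the gene of B-MYB, which works with FOXM1 on the MuvB complex, averaged 352.0 ± 9.33 CPM in siTRAIP and 295.7 ± 4.41 CPM in siNC (SD, n = 3 each), a rise of 0.25 ± 0.04 (SE) in log2 (edgeR adjusted p = 1.40e-04). RBL1, the pocket protein p107, rose by 0.35 (SE 0.05) and RBBP4, a histone-binding MuvB subunit, by 0.29 (SE 0.05). Of the exonic bases of RBBP4, 18.0% are shared with the opposite-strand gene SYNC. NFYC, a subunit of the factor that binds CCAAT boxes such as those printed above, fell by 0.16 (SE 0.05; edgeR adjusted p = 0.0432).

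Of 28 G2/M transcripts outside the members, 8 rose and 1 fell. In this list 25 had a positive log2 fold change (median 0.09, against 0.03 over the members). Over all tested genes the median was -0.00174, and the share of positive values was not taken. On library totals, without TMM factors, that median moved to -0.0618, so the count of positive values depends on the scaling. CENPF, a kinetochore protein gene, rose by 0.26 (SE 0.05), TACC3, a spindle protein gene and partner of Aurora A, by 0.22, and NUSAP1 and NDC80, of the spindle and the outer kinetochore, by 0.20 each (SE 0.04 for the last 3). FAM83D, a spindle protein gene, fell by 0.18 (SE 0.05). For the anaphase-promoting complex, which destroys the cyclins, PLK1 and the Aurora kinases, 4 of 22 rose and 2 fell (median -0.03). BUB1B, a checkpoint inhibitor of this complex, rose by 0.32 (SE 0.04), 10.2% of its exonic bases being shared with BUB1B-PAK6. CDC26, a small subunit, rose by 0.16 (SE 0.04), with 17.7% of its exonic bases shared with the opposite-strand gene PRPF4. CDC20, the mitotic activator, fell by 0.21 (SE 0.05) and UBE2S, the chain-extending ubiquitin conjugase, fell by 0.23 (SE 0.05) on the log2 scale.

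Of 8 tested G2 checkpoint brakes, CHEK1 rose by 0.21 (SE 0.06) and GADD45A fell by 0.15 (SE 0.05) on the log2 scale. Among 6 relatives of survivin in the inhibitor of apoptosis family and its antagonist, none rose, and BIRC3 fell by 0.46 (SE 0.09, edgeR adjusted p = 9.38e-04), opposite to BIRC5. As a neighbouring phase, of 18 G1/S transcripts 11 rose and none fell (median 0.15), led by RRM1 (0.36), RRM2 (0.33) and MCM6 (0.32). Rises made up 7.47% of all tested genes and 13.4% of those with a mean CPM at least that of CDC25C. How many of the 11 rises remain on library totals was not counted. By median, the mitotic genes stood below the G1/S list and the other G2/M transcripts. The lists were not tested against each other, and these counts cannot tell a shift in phase from a change in RNA per cell. Of the 27 genes these lists name as called, 13 kept the call in all 18 alternatives and 14 lost it in at least 1. Those 14 are PPP2R2A, CEP55, RBBP4, TACC3, NDC80, UBE2S, AURKAIP1, FAM83D, PLK2, CDC26, CHEK1, TPX2, NFYC and GADD45A.

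**Figure D4:**
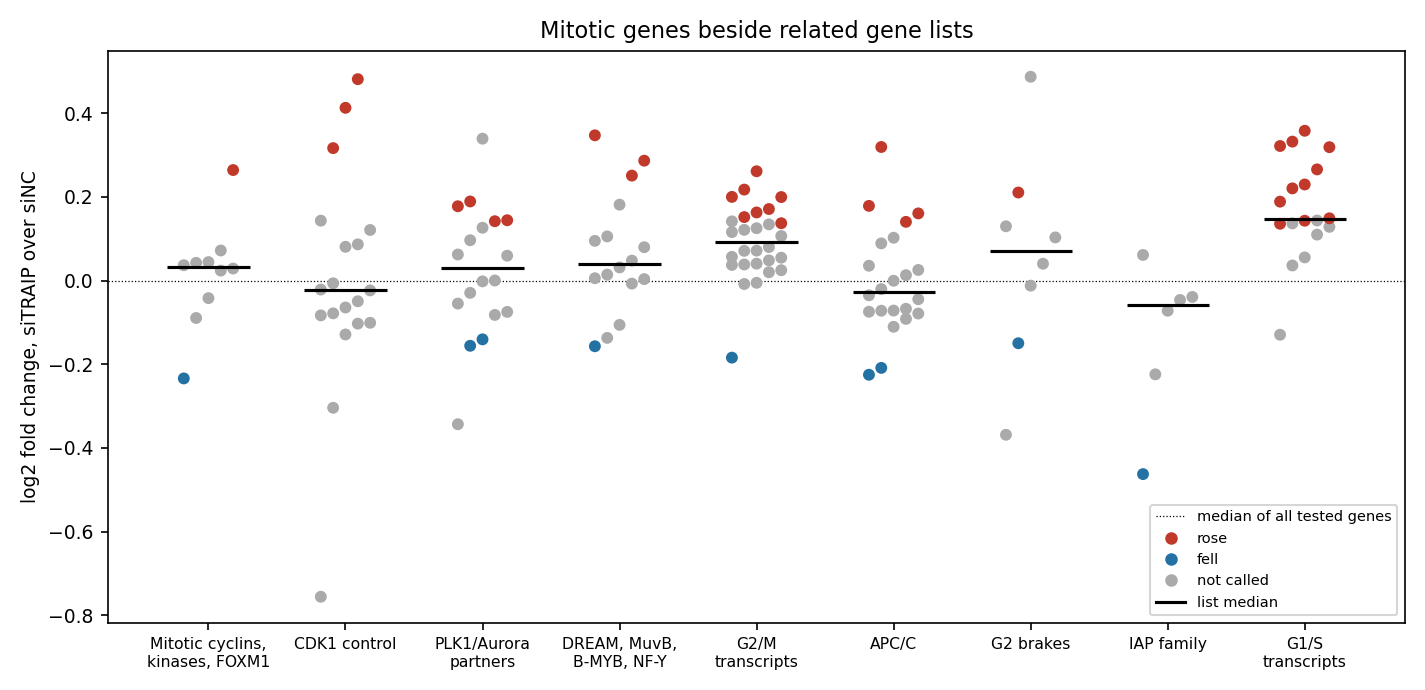
Log2 fold change, siTRAIP over siNC, of every tested gene in the mitotic set and in 8 related lists; red points rose, blue points fell, grey points were not called, black lines are list medians and the dotted line is the median of all 18685 tested genes. The mitotic set has 1 red point (BIRC5) and 1 blue point (PLK1) around a median of 0.03, beside medians of 0.09 for the G2/M transcripts and 0.15 for the G1/S transcripts; on library totals all values sit lower and the related genes have 13 rises and 18 falls.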

How the data were processed

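T24 libraries were used, 3 siTRAIP and 3 siNC, grouped by sample title. The authors deposited raw counts for each gene and, in a separate table, RPKM values. Per the submitters' processing notes, Trimmomatic 0.36, featureCounts, Subread 1.5.1 and build GRCh38 were used; the aligner, annotation release and strand setting were not found in the labels or headers. RNA was total RNA, and the library kit was a stranded mRNA kit per the labels' protocols.

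Counts were tested with edgeR 4.0.16 in R 4.3.3 (filterByExpr, TMM, quasi-likelihood F-test with robust=TRUE, 2-sided, Benjamini-Hochberg over 18685 genes, threshold 0.05). The SE is the log2 fold change divided by the square root of F, and 95% intervals use the fit's degrees of freedom. The script was tested on simulated data. Alternatives were DESeq2 1.42.0, other size factors and filters, halved and thinned counts, limma 3.58.1 on log2(RPKM + 0.1) and log2(RPKM + 1), the replicate number as a block, and each library left out. The genes, lists and tests were chosen with earlier results of these data known. Named genes are the members, TRAIP and 3 genes most like FOXM1. To these come up to 4 called genes per list by adjusted p (3 for G1/S) plus called genes against their list's majority. WEE1, CDC25A and CDC25B were added later for their role, and CHEK2, LIN52 and CCNE1 for their low counts.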

Additional observations from a re-analysis of the deposited data

How the results depend on the processing

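In the 18 alternatives PLK1 and BIRC5 kept their calls and directions, TRAIP stayed called (log2 fold change -1.21 to -0.991), and no called member changed sign. On library totals without TMM factors, 838 genes rose and 2050 fell (main 1396 and 997), 2 members fell, and 13 related mitotic genes rose and 18 fell (main 23 and 8). With limma on log2(RPKM + 0.1) and log2(RPKM + 1), 1520 and 1519 genes changed (main 2393), 461 and 450 rose, 2 members fell in both, and 19 related genes changed with 8 rises in both. The added member is AURKA (log2 fold change -0.149, -0.149 and -0.146; adjusted p = 0.0167, 0.0399 and 0.0398). These scales omit the TMM factors, 0.971 to 0.987 in siTRAIP and 1.011 to 1.029 in siNC. Members not called changed sign there: on totals, log2(RPKM + 0.1) and log2(RPKM + 1) the log2 fold changes were -0.0316, -0.0325 and -0.0314 for CCNA2, -0.0158, -0.0161 and -0.0159 for CCNB1, -0.0235, -0.024 and -0.0229 for CCNB2, -0.0175, -0.0166 and -0.0161 for AURKB, and -0.0351, -0.0379 and -0.0311 for CDC25C. Thinning gave CDC25C -3.82e-05. With 1 library left out, the log2 fold change ran from -0.0138 (without siTRAIP replicate 2) to 0.119 (without siTRAIP replicate 3) for CCNB2, from -0.0653 to 0.00119 (without siTRAIP replicate 3) for FOXM1, and from -0.109 (without siNC replicate 3) to 0.112 for CDC25C, which was -0.045 without siTRAIP replicate 3.

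With 1 library left out, 1480 to 2622 genes changed, 878 to 1471 rose and 602 to 1151 fell. Among related genes 17 to 34 changed, 14 to 24 rose and 3 to 10 fell. In every such fit 2 members were called. The lowest counts came without siNC replicate 1 (1480 genes, 17 related); without siTRAIP replicate 1 there were 19 related calls and without siNC replicate 3 there were 20, and the cause was not tested beyond fewer samples. Equal replicate numbers are not said to mark pairs, and the correlations of deviations from the group mean between libraries with 1 number were -0.0076, -0.0177 and 0.0014. With the number as a replicate block, 4 related genes fell (main 8), and the calls on members were the same, BIRC5 up and PLK1 down. CDC25C had the lowest counts of the members, 348 to 780 per library, and the widest interval; how far depth sets it was not tested.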
